A study of Mus musculus with 6 samples.

Results

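A set of 10 genes of transforming growth factor beta (TGF-beta) and bone morphogenetic protein (BMP) signalling were followed in RNA-seq libraries of mouse bone marrow megakaryocytes (MKs). They comprised the inhibitor of DNA binding genes Id1, Id2 and Id3, the ligand gene Tgfb1, the receptor genes Tgfbr1, Tgfbr2 and Bmpr2, and the Smad genes Smad3, Smad6 and Smad7. The 10 genes were chosen by symbol with the genotype difference of these libraries already known, so their genotype differences are given as descriptions, without a test. All 10 were among the 16579 genes of the table and among the 12256 that passed the filter on low counts. The study asked how loss of Beclin 1 (Becn1), a regulator of autophagy, in the megakaryocytic lineage affects these cells, platelets and bone. The data comprised 6 libraries, 3 labelled Becn1f/f (control) and 3 labelled Becn1f/f;Pf4-iCre, each of MKs obtained from marrow by fluorescence-activated sorting. Both genotypes carried floxed Becn1, and the second carried in addition a Cre recombinase driven by the promoter of Pf4, the platelet factor 4 gene, which is active in the megakaryocytic lineage. No treatment was given, the mice were 3 months old, and neither the sex of the mice nor whether a library came from 1 mouse or several was given in the sources used here. Any p-value below therefore measures the spread between these libraries.

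TGF-beta and BMP ligands bind pairs of type I and type II receptor kinases at the cell surface. The activated type I receptor phosphorylates receptor Smads, which join Smad4, enter the nucleus and bind DNA. BMP signalling through Smad1, Smad5 and Smad8 is a classic inducer of the Id genes, whereas Smad2 and Smad3 carry the TGF-beta signal. Of the inhibitory Smads, Smad7 dampens both branches and Smad6 mainly the BMP branch. Id proteins lack a DNA-binding region and hold basic helix-loop-helix factors such as the E proteins in inactive pairs. MKs and platelets are known as a rich store of TGF-beta 1 in marrow.

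RefSeq promoter windows (build GRCm38.p6) were matched by symbol for 8 of the 10 genes, giving 9 windows because Tgfbr1 had more than 1. Id1 and Smad7 were not matched. The 250 bases before the start site are shown for Id2, Id3 and Bmpr2, the matched genes with the largest genotype differences. Capitals mark 3 motifs searched on both strands, namely GGCGCC, a GC-rich element bound by Smad proteins, GTCTG, which holds the Smad box and reads CAGAC on the other strand, and TATAA, which reads TTATA on the other strand and is the core of the TATA box.
Id2, chr12:25096093-25096342, minus strand: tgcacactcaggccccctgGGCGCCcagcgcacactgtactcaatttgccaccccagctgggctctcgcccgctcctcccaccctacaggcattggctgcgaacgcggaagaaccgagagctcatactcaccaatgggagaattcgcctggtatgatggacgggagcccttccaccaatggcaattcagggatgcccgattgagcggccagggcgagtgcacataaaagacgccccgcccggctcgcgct
Id3, chr4:136143572-136143821, plus strand: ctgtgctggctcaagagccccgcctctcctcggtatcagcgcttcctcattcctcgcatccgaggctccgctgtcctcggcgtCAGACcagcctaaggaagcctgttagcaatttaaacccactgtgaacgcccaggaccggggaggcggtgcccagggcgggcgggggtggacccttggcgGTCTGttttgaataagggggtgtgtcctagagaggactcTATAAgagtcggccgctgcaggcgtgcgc
Bmpr2, chr1:59764029-59764278, plus strand: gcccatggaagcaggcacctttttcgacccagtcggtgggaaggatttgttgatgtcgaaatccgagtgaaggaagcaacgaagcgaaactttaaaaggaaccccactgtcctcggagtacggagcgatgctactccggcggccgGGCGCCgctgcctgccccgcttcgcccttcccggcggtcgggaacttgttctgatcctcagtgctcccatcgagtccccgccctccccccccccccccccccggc
GGCGCC began 231 bases before the start of Id2 and 105 bases before that of Bmpr2. The Id3 window held GTCTG at 68 bases and its reverse complement at 167 bases before the start, and TATAA at 29 bases. Among the 9 windows of these genes, 3 held GGCGCC, 3 held GTCTG in either orientation and 1 held TATAA. Over all 32851 windows the shares were 9.59%, 42.2% and 22.8%. A match describes the letters only and is not evidence of a bound site.

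The 6 libraries held 16467560 to 17156728 estimated counts. Levels of a gene were compared between libraries in CPM, its counts scaled to the normalized library size. Becn1 itself was at 118 ± 9.37 CPM (SD, n = 3) in the control libraries and 107 ± 2.74 in the Pf4-iCre libraries, with overlapping values and a log2 fold change of −0.15 (SE 0.12), so the transcript total of the targeted gene did not separate the labels. Reads over the deleted part alone were not analysed here. By RT-qPCR the paper reports significantly less Becn1 RNA in sorted CD41+ marrow cells and no change in CD41− cells. It also reports Becn1 protein as undetectable in platelets of these mice. Those assays are not part of the data used here. Of the defining MK markers, Itga2b (CD41) was at 173 ± 21.9 CPM and 155 ± 17.7 CPM, while Pf4 was low, at 4.87 ± 1.62 and 2.42 ± 0.556 CPM. Defining markers of other cells were also present, some at higher levels than Itga2b. The neutrophil gene Elane was at 669 ± 20.5 and 456 ± 79.0 CPM, the macrophage genes Csf1r and Adgre1 at 431 and 516 CPM and at 188 and 188 CPM, and the erythroid gene Klf1 at 1.53 and 0.797 CPM. Several marker lists leaned to 1 side, and their part in the values below was not tested. All 13 tested erythroid markers had lower fitted levels in the Pf4-iCre libraries (6 of them DEGs as defined below), with a summed level of 441 to 567 CPM against 580 to 852 CPM. Of 16 neutrophil markers 15 were lower (1 a DEG), with 9766 to 13107 CPM against 12583 to 17673 CPM, which overlap. Of 12 macrophage markers 11 were higher (4 DEGs), with 888 to 1096 CPM against 816 to 873 CPM. Of 10 B cell markers 9 were lower (1 a DEG), although the summed levels overlapped (190 to 239 against 181 to 324 CPM). The MK list was lower for 12 of 18 genes (1 a DEG, Pf4), although its summed levels overlapped (577 to 629 CPM against 547 to 646 CPM). Of 7 tested T and NK cell markers 4 were lower (0 DEGs), and of 7 endothelial and stromal markers 3 were lower (1 a DEG), and the summed levels of both lists overlapped (43.7 to 60.1 against 57.3 to 69.4 CPM, and 116 to 127 against 118 to 143 CPM). No listed marker present in the table was at 0 in all libraries. Because these are bulk samples, a change in the number of cells of a type and a change in RNA per cell cannot be told apart. Nor can the levels below be assigned to MKs alone, since the summed neutrophil level exceeded the summed MK level in every library.

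Levels were compared between genes as FPKM, the authors' level scaled to transcript length and to the fragments of each library. Tgfb1 had the highest mean of the 10 genes, 154 FPKM over the 6 libraries, above 95.4% of tested genes. The Id genes followed closely together, with Id1 at 83.0, Id2 at 79.4 and Id3 at 70.5 FPKM, each above about 9 in 10 tested genes (90.8%, 90.3% and 89.1%). Their order was not firm, since Id1 exceeded Id2 in 4 of 6 libraries and Id2 exceeded Id3 in 4 of 6. The TGF-beta receptors were lower, with Tgfbr2 at 21.8 FPKM and Tgfbr1 at 13.0 FPKM, and Tgfbr2 was the higher of the pair in all 6 libraries. Smad7 (11.9 FPKM), Smad3 (10.9 FPKM) and Bmpr2 (7.23 FPKM) came next, and Smad7 and Smad3 exchanged places, each being the higher in 3 libraries. Smad6 was barely present, at 0.70 FPKM and 27 to 37 counts per library.

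**Figure D1:**
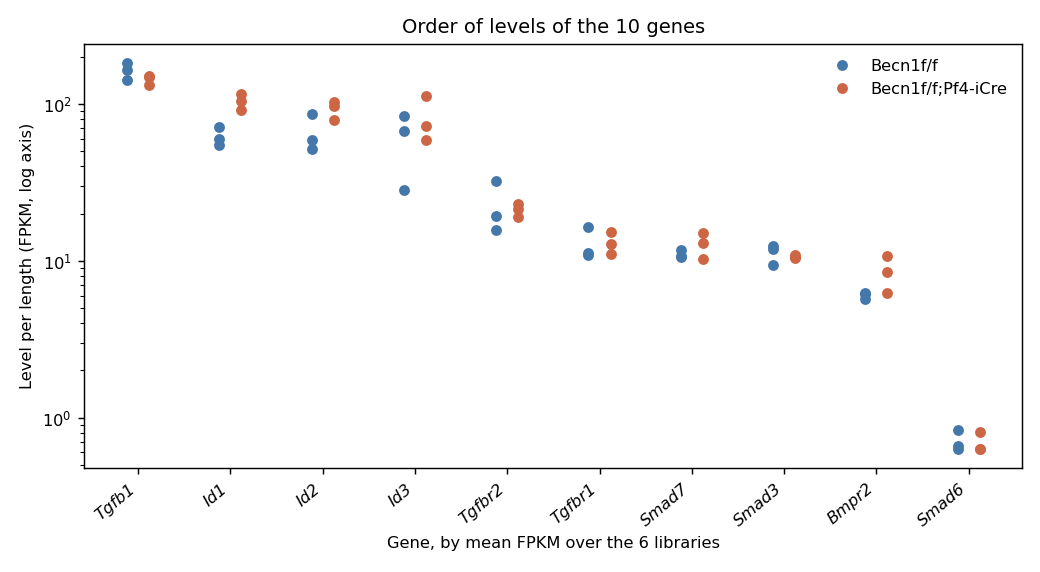
Level per length (FPKM, log axis) of the 10 genes, ordered by their mean over the 6 libraries, with 1 point per library (blue, Becn1f/f; orange, Becn1f/f;Pf4-iCre). Tgfb1 lies at the top at a mean of 154 FPKM, the 3 Id genes lie together between 70.5 and 83.0 FPKM, and Smad6 lies far below at 0.70 FPKM.

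Id1, a well-known BMP target, separated the genotypes. Its level was 37.7, 44.3 and 33.4 CPM in control libraries 1 to 3 and 68.5, 55.5 and 70.9 CPM in Pf4-iCre libraries 1 to 3. Every Pf4-iCre library was above every control library. The means were 38.5 ± 5.50 and 64.9 ± 8.28 CPM (SD, n = 3), a fold of 1.69 and a log2 fold change of 0.75 (SE 0.15). The value stayed between 0.66 and 0.87 under the 15 alternative settings. Id1 was the only one of the 10 genes past the thresholds that define a differentially expressed gene (DEG), a fold change of at least 1.5 and an unadjusted P under 0.05 in edgeR's quasi-likelihood test. Over all tested genes 1.36% were DEGs in the higher direction and 0.938% in the lower direction. Since the gene was chosen with this contrast known, nothing is read from that count.

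Id2, known for its need in innate lymphoid and dendritic cells, was at 84.7, 56.1 and 48.1 CPM in the control libraries and at 78.9, 96.0 and 91.5 CPM in the Pf4-iCre libraries. Control library 1 lay within the Pf4-iCre range, and the other 2 control libraries lay below it. The means were 63.0 ± 19.2 and 88.8 ± 8.88 CPM, a log2 fold change of 0.50 (SE 0.19). Without control library 1 the value was 0.78, and without control library 3 it was 0.33.

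Id3, a second BMP target of the family, varied most among libraries. It was at 54.0, 43.1 and 17.4 CPM in the control libraries and at 74.7, 45.2 and 36.9 CPM in the Pf4-iCre libraries. The groups overlapped, and control library 3 was far below all others. The highest library was 4.29 times the lowest, against 2.12 times for Id1 and 2.00 times for Id2. The log2 fold change of 0.46 (SE 0.35) was 0.11 without control library 3, likewise 0.11 without Pf4-iCre library 1, and it was 0.79 without control library 1, so single libraries set its size.

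Summed over the 3 Id genes, the level per length was 230.2, 198 and 135 FPKM in the control libraries and 296, 267 and 271 FPKM in the Pf4-iCre libraries. All Pf4-iCre sums lay above all control sums, with means of 188 ± 48.2 and 278 ± 15.7 FPKM. The sum includes Id1, which separated the genotypes by itself and was chosen with this contrast known, whereas Id2 and Id3 each overlapped. Nothing further is therefore read from the separation of the sums. The make-up of that sum overlapped between genotypes. Id1 supplied 25.9%, 35.9% and 40.8% in the control libraries and 35.5%, 34.3% and 42.6% in the Pf4-iCre libraries.

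**Figure D2:**
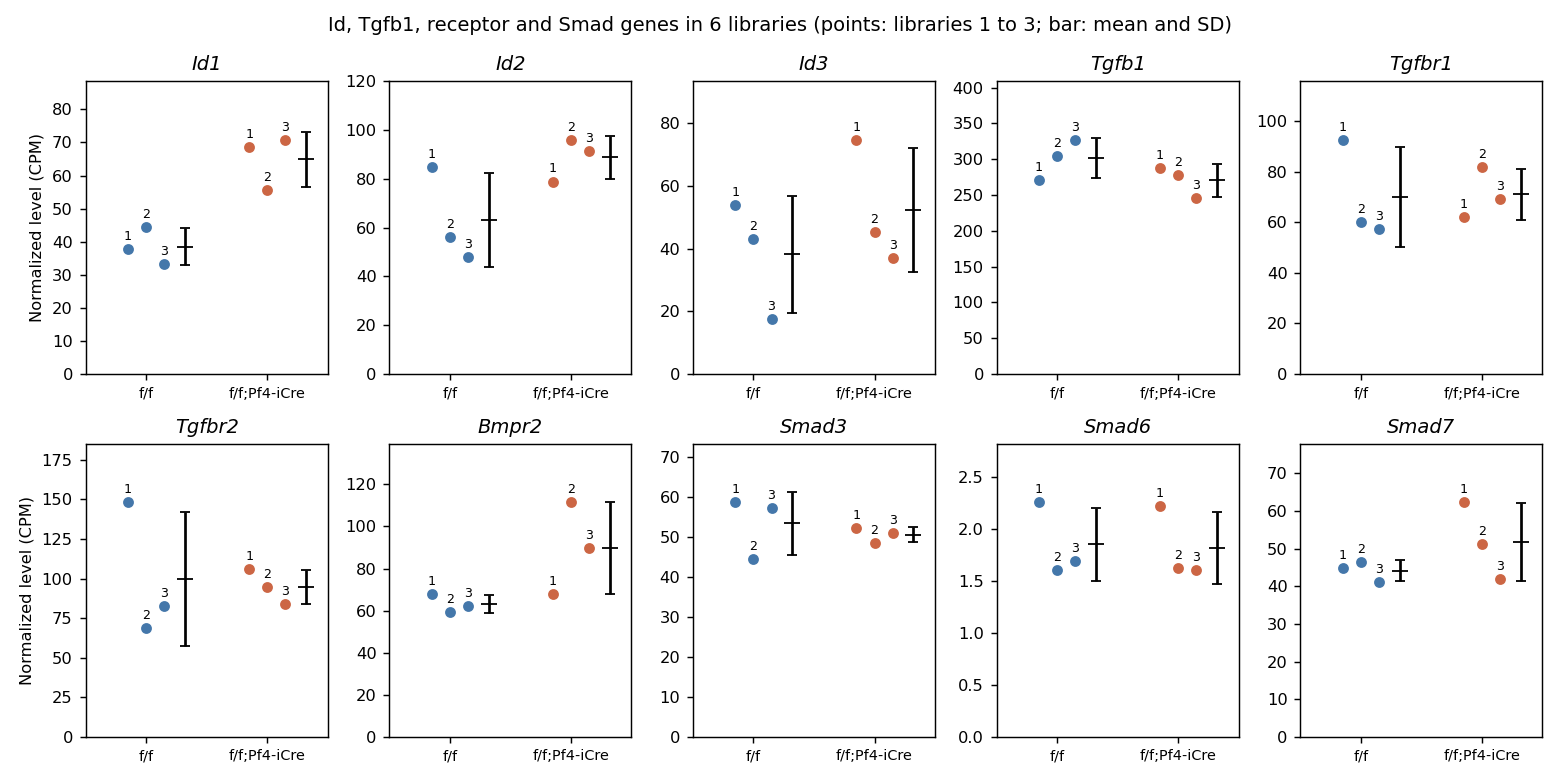
Normalized level (CPM, linear axes from 0) of each of the 10 genes in the 3 Becn1f/f and 3 Becn1f/f;Pf4-iCre libraries, with numbered points for libraries and a bar for the mean and SD. The genotypes stand apart for Id1 (33.4 to 44.3 against 55.5 to 70.9 CPM), touch for Bmpr2 and overlap for the other 8 genes.

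Tgfb1, the ligand gene, was at 272, 305 and 327 CPM in the control libraries and at 288, 278 and 245 CPM in the Pf4-iCre libraries. The ranges overlapped, with the highest value in a control library and the lowest in a Pf4-iCre library. The log2 fold change was −0.16 (SE 0.13), and it was −0.02 once trends with GC content and transcript length were taken out.

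Tgfbr1, the type I TGF-beta receptor, was at 92.6, 59.9 and 57.2 CPM in the control libraries and at 62.0, 81.9 and 69.1 CPM in the Pf4-iCre libraries, a log2 fold change of 0.02 (SE 0.19). Tgfbr2, the type II receptor that starts the signal, was at 148, 69.0 and 82.6 CPM and at 106, 94.4 and 84.0 CPM, a log2 fold change of −0.08 (SE 0.24). For both, control library 1 was the highest of the 6 libraries and the genotypes overlapped. Without that library the values were 0.28 and 0.33, so no direction can be given. The ratio of Tgfbr2 to Tgfbr1 on the FPKM scale was 1.71 ± 0.277 in the control libraries and 1.66 ± 0.368 in the Pf4-iCre libraries.

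Bmpr2, a type II receptor for BMP ligands, was at 67.8, 59.2 and 62.4 CPM in the control libraries and at 67.9, 111 and 90.0 CPM in the Pf4-iCre libraries. The control libraries were close together, whereas the Pf4-iCre libraries ranged from the top of the control values upward. The groups did not overlap in CPM, but by less than 0.1 CPM, and on the FPKM scale the highest control and the lowest Pf4-iCre library were both at 6.20. The means were 63.2 ± 4.36 and 89.8 ± 21.8 CPM, a log2 fold change of 0.51 (SE 0.17). The value was 0.67 without Pf4-iCre library 1, where Bmpr2 was past the DEG thresholds, 0.32 without Pf4-iCre library 2, and 0.31 with GC and length trends taken out. The Bmpr2 transcript was the longest of the 10 (12899 bases) and among the poorest in GC (41.0%), and across the 11953 tested genes with a transcript match the log2 fold change had a Spearman correlation of −0.35 with GC content and 0.19 with length, as a description over genes. The part of composition in the Bmpr2 difference was not tested. Id1, with 1160 bases and 54.7% GC, was at 0.84 with those trends taken out.

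Smad3, the receptor Smad of the TGF-beta branch, was at 58.7, 44.5 and 57.3 CPM in the control libraries and at 52.3, 48.5 and 51.0 CPM in the Pf4-iCre libraries. All 3 Pf4-iCre values lay inside the control range, and the log2 fold change was −0.08 (SE 0.14).

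Smad7, an inhibitory Smad and feedback target of the pathway, was at 44.9, 46.5 and 41.1 CPM and at 62.3, 51.1 and 41.8 CPM. Pf4-iCre libraries 1 and 2 were above all control libraries and library 3 was not. The log2 fold change was 0.23 (SE 0.16) and was 0.07 without Pf4-iCre library 1.

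Smad6, the inhibitory Smad of the BMP branch, was at 2.26, 1.61 and 1.69 CPM and at 2.22, 1.63 and 1.60 CPM. Both groups held 1 library near 2.2 CPM and a pair near 1.6 CPM. The log2 fold change was −0.03 (SE 0.29), at 27 to 37 counts per library. Whether a modest difference could be missed at this depth was not tested.

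Across the 10 genes the log2 fold change was above 0 for 6 and below 0 for 4, with a median of 0.13, beside a median of −0.02 and 45.5% above 0 over all 12256 tested genes. The genotypes did not overlap, higher in the Pf4-iCre libraries, for 2 of the 10 genes (Id1 and Bmpr2) and for 5.42% of all tested genes. They did not overlap in the lower direction for 0 of the 10 and for 5.18% of all. Over all genes 0.0408% had an adjusted p under 0.05 (Benjamini-Hochberg).

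**Figure D3:**
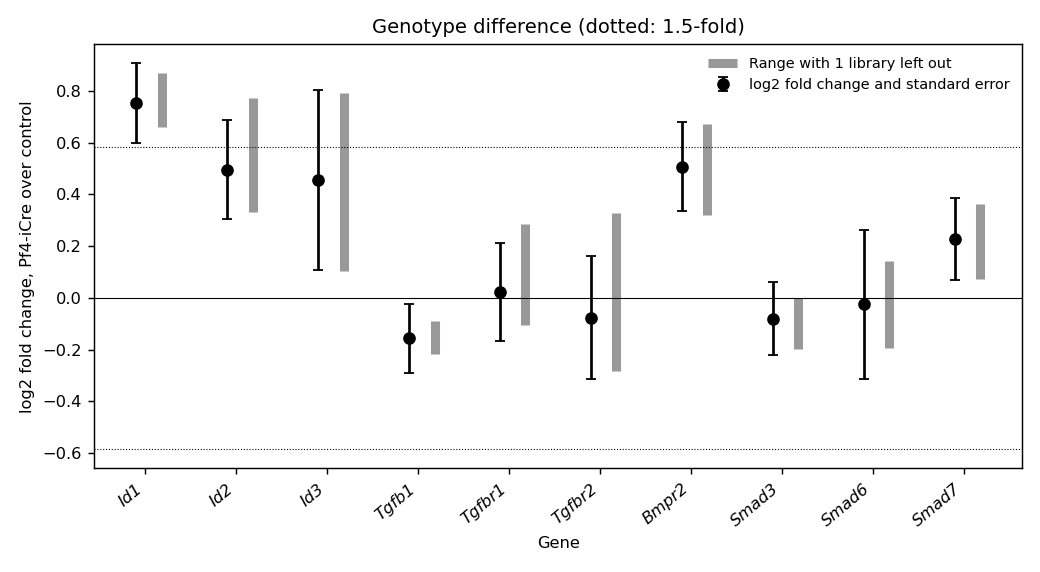
Log2 fold change (Becn1f/f;Pf4-iCre over Becn1f/f) of each gene, with points and error bars for the estimate and its standard error and grey bars for the range when 1 library at a time was left out. Id1 stays above the dotted 1.5-fold line throughout (0.66 to 0.87), Id3 runs from 0.11 to 0.79, and the bars of Tgfbr1, Tgfbr2 and Smad6 cross 0.

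The 10 genes did not vary together as 1 block within genotypes. Deviations from the genotype mean (log2 CPM) were correlated over the 6 libraries for the 45 gene pairs, of which 24 were positive and 21 negative, with a median of 0.10. These values share libraries and depth and are descriptions. The highest was Id2 with Tgfbr1 (0.96), followed by Tgfbr2 with Smad6 (0.85) and Tgfbr1 with Tgfbr2 (0.76), and the lowest was Tgfb1 with Id2 (−0.81). Control library 1 was high in both TGF-beta receptors, at 0.42 and 0.65 above the 6-library mean for Tgfbr1 and Tgfbr2. Control library 3 was the lowest library for Id1, Id2 and Id3, at −0.57, −0.61 and −1.25.

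**Figure D4:**
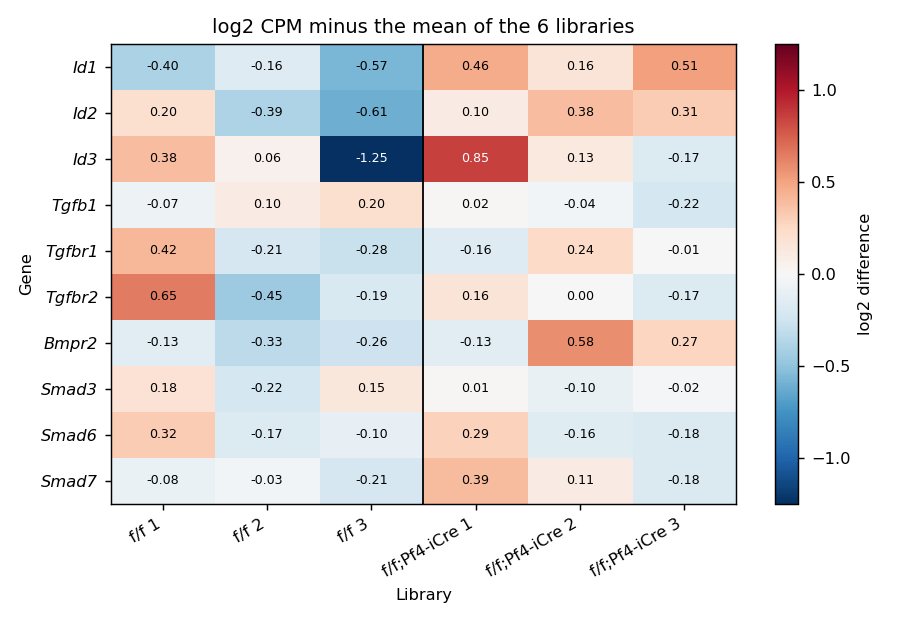
Log2 CPM of each gene in each library minus the mean of the 6 libraries (red, above; blue, below), with the genotypes on either side of the black line. Id1 is below its mean in all 3 Becn1f/f libraries and above it in all 3 Becn1f/f;Pf4-iCre libraries, while Tgfbr1 and Tgfbr2, but not Bmpr2, are high in control library 1.

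The genes whose log2 CPM pattern was most like that of an Id gene over the 6 libraries were H2-M3, Vapb and Ccdc32 for Id1 (Pearson's r 0.99, 0.98 and 0.97), Map4k3, Rnf122 and Sertad3 for Id2 (0.99 each), and Synpo2, Gm2026 and LOC115486430 for Id3 (0.99 each). With 6 libraries such values were common, since 62, 174 and 144 tested genes exceeded 0.9 with Id1, Id2 and Id3. A high correlation did not require a difference of like size. Vapb was at 77.3 to 78.6 CPM in the control libraries and 80.6 to 82.0 CPM in the Pf4-iCre libraries, a log2 fold change of 0.06 beside 0.75 for Id1, whereas Synpo2 had one of 0.41 (SE 0.46) beside 0.46 for Id3.

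The rest of the pathway was described from lists of 120 further genes, of which 11 were not in the table, 35 fell below the filter (at most 0.35 FPKM) and 74 were tested. None of the 74 was a DEG in the higher direction, 1 (Tgif2) was a DEG in the lower direction, and by edgeR 0 had an adjusted p under 0.05 and 6 (8.11%) an unadjusted p under 0.05, beside 6.31% of all tested genes. The log2 fold change was above 0 for 45 and below 0 for 29, with a median of 0.06. That median ran from 0.01 (without Pf4-iCre library 2) to 0.17 (without control library 1) when 1 library at a time was left out. It was 0.03 with GC and length trends taken out. The genotypes did not overlap for 8 genes in the higher direction (10.8%, beside 5.42% of all genes) and for 2 in the lower direction (2.70%, beside 5.18%). Tgif2, a homeobox repressor that acts with Smads, was at 43.8, 27.5 and 20.9 CPM in the control libraries and at 23.6, 18.8 and 16.5 CPM in the Pf4-iCre libraries. Its groups overlapped, with a log2 fold change of −0.65 (SE 0.24) and an adjusted p of 0.65 by edgeR, and without control library 1 the value was −0.30 and the gene was no longer a DEG.

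Among ligands, 8 of 30 were tested, 2 above and 6 below 0, with a median log2 fold change of −0.09. Apart from Tgfb1 they were scarce, the most abundant being Gdf3 at 2.23 FPKM and the activin subunit gene Inhba at 2.01 FPKM. Ligand regulators numbered 11 tested genes, 4 above and 7 below 0, with a median of −0.10. The most abundant was Thbs1, encoding thrombospondin 1, an activator of latent TGF-beta, at 519 FPKM with a log2 fold change of 0.03 (SE 0.31). Nrros, which holds latent TGF-beta on myeloid cells, was at 109 FPKM and −0.04 (SE 0.13). Ltbp4, named after its values were seen, was the 1 gene of this list whose genotypes did not overlap, at 6 to 14 counts per library. That is 9.09% of the list in the lower direction, beside 5.18% of all tested genes.

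Receptors showed the highest median of the lists, 0.31, with 9 of 11 above 0 and none past the DEG thresholds. Over all tested genes the median was −0.02, with 45.5% above 0. The median of this list by itself was not followed under the alternative settings. Acvr1b, an activin type I receptor, was at 12.8 FPKM and 0.20 (SE 0.14), and Bambi, a decoy receptor that itself blocks signalling, at 11.2 FPKM and 0.31 (SE 0.23). The genotypes did not overlap, higher in the Pf4-iCre libraries, for 3 of the 11 (27.3%), beside 5.42% of all tested genes. Since the lists were chosen with earlier results of these data known, nothing is read from that share. The 3 genes are named here after their values were seen. These were the BMP type I receptors Acvr1 (0.32, SE 0.16) and Acvrl1 (0.31, SE 0.15) and the BMP co-receptor Rgmb (0.58, SE 0.25), with adjusted p of 0.82, 0.80 and 0.76 by edgeR. Acvrl1 was at 36.4, 30.2 and 30.2 CPM in the control libraries and at 45.0, 38.5 and 36.5 CPM in the Pf4-iCre libraries, a gap of under 0.1 CPM.

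Of the remaining Smads, 4 were tested and all 4 had log2 fold changes above 0, with a median of 0.18 and none a DEG. Smad4, the shared partner, was at 17.0 FPKM with 118, 109 and 110 CPM in the control libraries and 131, 153 and 120 CPM in the Pf4-iCre libraries, which did not overlap (0.26, SE 0.13, adjusted p of 0.84 by edgeR). Smad2 was at 11.0 FPKM and 0.10 (SE 0.13). Smad1, the BMP-branch receptor Smad, was at 12.4, 14.4 and 14.6 CPM and at 16.3, 19.0 and 16.7 CPM, which did not overlap either (0.33, SE 0.15, adjusted p of 0.80 by edgeR). It is named after its values were seen.

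Intracellular regulators had 12 of 19 genes above 0 and a median of 0.05. The genotypes did not overlap, in the higher direction, for 2 of the 19 (10.5%), beside 5.42% of all tested genes. The most abundant were the repressor gene Tgif1 (71.4 FPKM, log2 fold change of 0.05, SE 0.30) and Strap (67.8 FPKM, −0.14, SE 0.13). The genotypes did not overlap for Zfyve9, the anchor protein that presents Smads to the receptor (0.51, SE 0.15, adjusted p of 0.45 by edgeR), and for Zfyve16 (0.35, SE 0.15), both named after their values were seen. Response genes had 11 of 14 above 0 and a median of 0.09. For 1 of the 14 (7.14%) the genotypes did not overlap, in the higher direction, beside 5.42% of all tested genes. Junb, an AP-1 gene, was at 764 FPKM (0.03, SE 0.13). Fn1, encoding fibronectin and known as a TGF-beta target that macrophages also express, was at 3620, 4508 and 4717 CPM in the control libraries and at 7109, 6190 and 5290 CPM in the Pf4-iCre libraries. These did not overlap, and the log2 fold change was 0.53 (SE 0.17) with an adjusted p of 0.48 by edgeR. Among the 7 tested partners of Id proteins, 3 were above and 4 below 0, with a median of −0.05. For 1 of the 7 (14.3%) the genotypes did not overlap, in the lower direction, beside 5.18% of all tested genes. Lyl1 was at 59.9 FPKM (−0.07, SE 0.16). Tcf3, the gene of the E proteins E12 and E47, was at 35.1 FPKM, with 109, 111 and 120 CPM in the control libraries and 102, 90.4 and 91.1 CPM in the Pf4-iCre libraries, which did not overlap (−0.26, SE 0.12, adjusted p of 0.81 by edgeR).

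**Figure D5:**
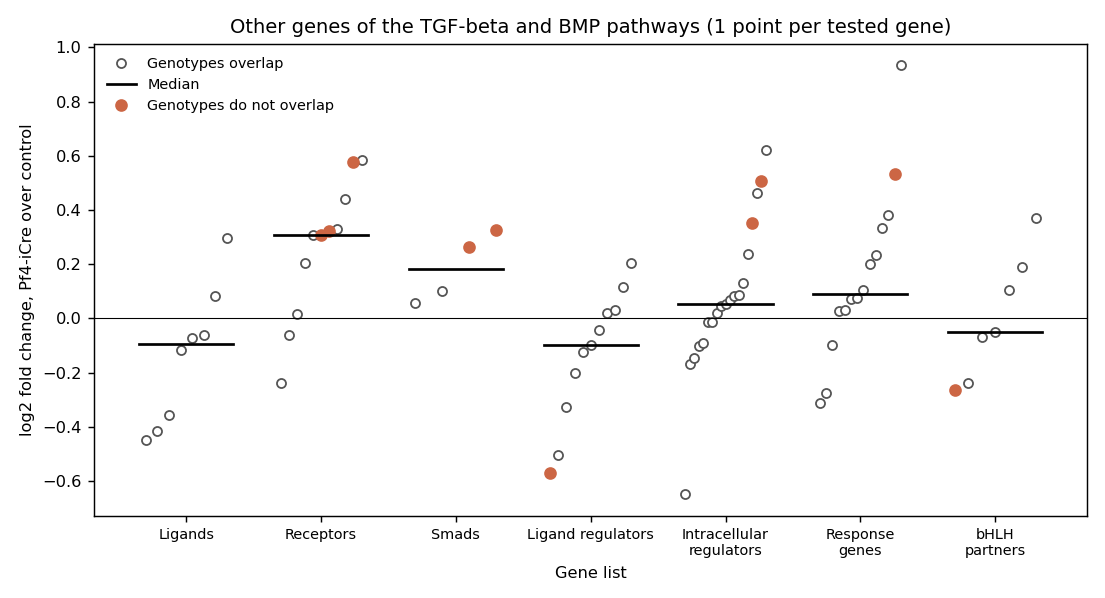
Log2 fold change (Becn1f/f;Pf4-iCre over Becn1f/f) of the 74 tested pathway genes outside the 10, 1 point per gene, grouped by list, with bars for medians and filled points for genes whose genotypes did not overlap. Receptors have the highest median (0.31), and the lowest point is Tgif2 (−0.65).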

How the data were processed

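RNA of sorted MKs was sequenced in 3 Becn1f/f and 3 Becn1f/f;Pf4-iCre libraries. Per the study's methods, the authors removed low-quality, adapter and unknown-base reads and mapped the rest with HISAT. The submitters' processing notes name HISAT, Bowtie2, GRCm39 and mm39. The counting tool and strand setting are not given in the sources used here, so reads of overlapping genes could be split or shared. The authors deposited estimated counts (not normalized), used after rounding, and FPKM values for each library. Another 16 per-sample columns were not used, 4 of them of a library that matches no sample here, nor were 8 group-mean columns.

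Genotypes were compared by a quasi-likelihood model of edgeR (version 4.0.16, under R 4.3.3) with genotype as its only term, on the 12256 genes that filterByExpr kept, after TMM scaling, with p-values adjusted by Benjamini-Hochberg. The study's DEG thresholds were kept. Steps were tested on simulated data. The 10 genes and the gene and marker lists were chosen with earlier results of these data known. Named besides the 10 are Becn1, defining markers, DEGs and the 2 most abundant genes of each pathway list, and for each Id gene the 3 genes most like it. Other pathway genes are named where the genotypes did not overlap or where a direction reversed past the thresholds. That choice was made after their values were seen. Alternatives were DESeq2 1.42.0 and its size factors, other filters, limma 3.58.1 on log2 FPKM with a pseudocount of 1 or 0.1, GC and length offsets (GENCODE M21 transcripts matched by symbol, natural splines with 4 degrees of freedom per library), a replicate block, and leaving out each library. An exact permutation test of 3 against 3 cannot go below 0.1 (two-sided), so none was run.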

Additional observations from a re-analysis of the deposited data

How the results depend on the processing

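Of the 10 genes, 1 (Id1) was past the DEG thresholds, beside 1.36% of all tested genes in the higher and 0.938% in the lower direction. Id1 was so in 15 of 15 alternatives. These draw on the same libraries, and Id1 was chosen with the contrast known, so nothing is read from that count. Leaving out 1 library gave 1 to 3 of the 10 past the thresholds. Id2 and Id3 were added without control library 1, and Bmpr2 without Pf4-iCre library 1. DEGs over all genes also rose in these settings, from 167 higher and 115 lower of 12256 tested genes. They numbered 267 and 131 of 12386 without control library 1, and 215 and 128 of 12386 without Pf4-iCre library 1. The signs of Tgfbr1, Tgfbr2 and Smad6 varied with the setting, and Smad6 was left untested where a mean of at least 1 FPKM was required. For the other pathway genes, 0 were DEGs in the higher direction and 1 in the lower. With 1 library left out these became 0 to 6 (6 without control library 1) and 0 to 2. The lower count was 2 with limma on log2(FPKM + 0.1), 0 with limma on log2(FPKM + 1), with or without a mean of at least 1 FPKM, and 0 with GC and length offsets. Deviations from the genotype mean in same-numbered libraries were correlated over genes with r of 0.07, −0.28 and 0.20. With 3 libraries per genotype these values cannot decide whether the numbers pair the samples. With the replicate block 1 pathway gene was higher, 1 was lower, and 19 genes had an adjusted p under 0.05.

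Over all genes 167 were higher and 115 lower DEGs, and 5 had an adjusted p under 0.05. Leaving out 1 library gave 133 to 267 (most without control library 1), 92 to 208 (most without control library 2) and 0 to 27. In log2 CPM over all tested genes, control library 1 had Pearson's r of 0.983 and 0.980 with control libraries 2 and 3. Between control libraries 2 and 3 it was 0.987. With Pf4-iCre libraries 1 to 3, r was 0.985, 0.984 and 0.984 for control library 1 and 0.990, 0.984 and 0.988 for control library 2. For control library 3 these were 0.982, 0.985 and 0.988. Among the Pf4-iCre libraries r was 0.987 to 0.992. These values thus did not set pairs within a genotype apart from pairs between genotypes. Limma on log2(FPKM + 1) gave 88 and 33 DEGs with 0 adjusted, or 96 and 41 with 8 adjusted above the FPKM minimum, and log2(FPKM + 0.1) gave 216 and 216 with 0 adjusted. DESeq2 gave 77 adjusted, no filter 23, and GC and length offsets 8. Where these values moved, the cause was not tested. Id1 kept its direction in all 15 alternatives. The response gene Col1a1 was at a log2 fold change of 0.03 in the main fit. Without Pf4-iCre library 2 it was at −1.72 and past the DEG thresholds in the lower direction. Col1a1 was scarce and uneven, at 38, 142 and 54 counts in control libraries 1 to 3. It was at 23, 186 and 23 counts in Pf4-iCre libraries 1 to 3, so library 2 was the highest in both genotypes. Reversals were not counted over all genes. At 3 libraries per genotype, differences the size of the standard errors given cannot be resolved.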
